A study of Mus musculus with 6 samples.

Results

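The genes described here are 10 that encode chaperones, cochaperones and disulfide isomerases of the endoplasmic reticulum (ER), taken by their symbols from a table of 23420 genes: Hspa5, Hsp90b1, Dnajb9, Dnajb11, Dnajc3, Pdia4, Pdia6, Sdf2l1, Creld2 and Manf. The rule takes them by name and uses no measured value, although the list was drawn up with earlier results of these data known. All 10 were found and all 10 passed the filter on low counts, as did 11974 genes in all. RNA was measured in cultured mesenchymal stromal cells (MSCs) grown from the bone marrow of female C57BL/6 mice aged 6 to 8 weeks. The 3 libraries called Ctl MSC (controls 1 to 3) came from MSCs transduced with the empty AP2 retroviral backbone, which carries eGFP, and the 3 called MSC-TPr from MSCs transduced with the same vector coding for the thymoproteasome (TPr) subunits β1i, β2i and β5t. Both groups therefore carried the vector and its eGFP marker. The MSCs were derived in serum-containing medium, and the medium of the cells taken for RNA is not stated. Whether the libraries of a group came from separate animals, transductions or cultures is not given in the sources used here, so p-values measure the spread between these libraries, which may be technical.

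Proteins that enter the secretory pathway fold in the ER lumen. Hspa5 (BiP), an Hsp70 chaperone, binds unfolded chains in a cycle driven by ATP, J-domain cochaperones stimulate that cycle, Hsp90b1 (GRP94) acts on later folding steps, and protein disulfide isomerases form and rearrange disulfide bonds. When unfolded proteins accumulate, the sensors Atf6, Ern1 (IRE1) and Eif2ak3 (PERK) start the unfolded protein response, in which ATF6 and the spliced form of XBP1 raise the transcription of these genes. MHC class I molecules, which carry peptides to the cell surface, are folded and loaded in the same compartment.

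A DNA element that links many of these genes is the ER stress response element, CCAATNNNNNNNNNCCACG, which ATF6 binds together with the factor NF-Y. It was searched on both strands of RefSeq promoters (GRCm38.p6, from 250 bases before to 50 bases after the gene start), and 9 of the 10 members had an entry. The element was present in 5 of these 9, at 6 sites, and in 39 of all 32851 promoters of the same length (0.119%). The 6 sites lie in the promoters of these 5 members, and the element is not shared by all 9 searched. It is an element already linked to many of these genes. Its frequency among the members is therefore not independent of the choice of members, and the comparison with all promoters is descriptive only. Capitals mark the CCAAT and CCACG parts, 5 bases are given on each side, and each is written 5′ to 3′ in the orientation of the element.
Hspa5, chr2:34772020-34772048, plus strand: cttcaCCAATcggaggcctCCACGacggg
Hsp90b1, first site, chr10:86705633-86705661, minus strand: caagcCCAATcgcaaggagCCACGcttcg
Hsp90b1, second site, chr10:86705528-86705556, plus strand: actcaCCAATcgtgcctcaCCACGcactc
Dnajc3, chr14:118937822-118937850, plus strand: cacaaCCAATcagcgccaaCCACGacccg
Pdia6, chr12:17266486-17266514, plus strand: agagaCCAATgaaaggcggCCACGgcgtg
Creld2, chr15:88819515-88819543, minus strand: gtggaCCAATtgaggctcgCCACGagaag
The Hsp90b1 promoter was the only member promoter with more than 1 site, and its sites lie in opposite orientations, beginning 212 and 107 bases before the gene start. Its sequence upstream of the annotated exons (chr10:86705510-86705694, minus strand), with the 4 parts of the sites in capitals, reads as follows.
Hsp90b1 upstream: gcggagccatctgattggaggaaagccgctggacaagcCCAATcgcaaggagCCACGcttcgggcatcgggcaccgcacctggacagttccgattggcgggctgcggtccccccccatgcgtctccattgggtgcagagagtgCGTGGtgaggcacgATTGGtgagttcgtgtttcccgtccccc
Dnajb11 held a related element, the ER stress response element II, in which ATTGG and CCACG are separated by a single base, just after its start, and 0.0365% of all promoters held it. The shortened form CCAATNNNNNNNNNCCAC, which overlaps the full element wherever that occurs, added Pdia4 to the list and was found in 0.365% of all promoters. The string TGACGTGG was found in no member promoter and in 0.676% of all. Sdf2l1, the member with the largest fitted difference between the groups, held no full element in this window, and 3 CCAAT boxes lie in its upstream sequence (chr16:17132384-17132633, minus strand, boxes in capitals in either orientation).
Sdf2l1 upstream: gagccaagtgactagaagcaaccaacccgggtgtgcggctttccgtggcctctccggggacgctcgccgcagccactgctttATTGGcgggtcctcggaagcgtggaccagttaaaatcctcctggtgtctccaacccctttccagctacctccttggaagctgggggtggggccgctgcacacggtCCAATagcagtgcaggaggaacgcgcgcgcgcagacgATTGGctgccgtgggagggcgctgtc
A CCAAT box by itself was common, in 9 of 9 member promoters and 37.4% of all. These matches describe the sequences and were not tested as binding sites. The RefSeq starts differ from those of the annotation used for the gene coordinates. The Dnajb9 window lies wholly inside the annotated gene, so the sequence before its annotated start was not searched, and the Hspa5 site also lies inside the annotated gene.

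Reads counted on genes ranged from 16158756 to 22158887 per library. The libraries did not group by label alone, so this is set out before the results. Genes of cell division had a summed level of 143 to 149 CPM (reads scaled to the TMM-adjusted library total) in Ctl MSC 2 and 3 and in MSC-TPr 1, but of 1305 to 1485 CPM in MSC-TPr 2 and 3 and in Ctl MSC 1. The transduced gene Psmb11 had 1 to 6 reads in every library. Psmb9 stood at 3.38, 0.801 and 0.827 CPM in controls 1 to 3 and at 0.553, 1.24 and 1.21 CPM in MSC-TPr 1 to 3. Psmb10 stood at 27.8, 8.81 and 8.38 CPM in controls 1 to 3 and at 8.96, 17.3 and 15.2 CPM in MSC-TPr 1 to 3. Ctl MSC 1 was thus the highest library for Psmb9 and Psmb10, and MSC-TPr 1 lay below MSC-TPr 2 and 3 for both. Without the libraries numbered 1, Psmb10 was called higher in MSC-TPr (0.92, SE 0.156, edgeR adjusted p = 0.00547), and over all 6 its log2 fold change was −0.11. The directions given here are therefore between libraries labelled MSC-TPr and libraries labelled Ctl MSC, and the members' fold changes and calls are given with and without the libraries numbered 1. Whether those libraries carry each other's label was not tested, and every value over all 6 libraries rests on the labels as given. Of the MSC markers, Eng (CD105), Cd44, Pdgfrb and Ly6a were above 100 CPM in every library and Nt5e (CD73) lay between 11.4 and 20.2 CPM in the control libraries and between 2.66 and 5.24 CPM in the MSC-TPr libraries, while Thy1 (CD90) had 0 or 1 read. Of the markers of blood cells, Ptprc, Itgam, Adgre1 and Cd3e had 0 to 2 reads per library, and Cd68 lay between 0.788 and 14.2 CPM. The summed level of 5 endothelial markers was 0.785 to 3.32 CPM, with Tie1 at 0 reads.

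Together the 10 members took 0.801%, 1.41% and 1.44% of the reads on genes in controls 1 to 3 and 0.944%, 0.923% and 0.995% in MSC-TPr 1 to 3. Their summed share was thus highest in Ctl MSC 2 and 3 and lowest in Ctl MSC 1, with the MSC-TPr libraries between. Hspa5 and Hsp90b1 made up 74.8% to 82.8% of these reads. Per kilobase of annotated exon, which allows genes to be compared, Hspa5 had the highest mean level over the 6 libraries (1137 CPM per kb), followed by Hsp90b1 (950 CPM per kb), Pdia4 (222), Pdia6 (136), Manf (96.8), Sdf2l1 (92.2), Creld2 (88.5), Dnajc3 (65.2), Dnajb11 (58.1) and Dnajb9 (29.2, all in CPM per kb). Only Hsp90b1 and Pdia4 were neighbours in this order whose ranges over the libraries did not overlap. Manf and Sdf2l1, and likewise Sdf2l1 and Creld2, could not be ordered, since each was the higher of its pair in 3 of 6 libraries.

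Over all 6 libraries, 9 of the 10 members had a fitted level lower in the libraries labelled MSC-TPr and 1 (Hspa5) a higher one, where 48.9% of all genes tested were lower and 51.1% higher. The median log2 fold change of the members was −0.36, beside 0.01 over all genes. None of the 10 was called in either direction by edgeR's quasi-likelihood test, in which a call took an adjusted p below 0.05 together with a change of 0.5 or more on the log2 scale, and 0.401% of all genes were called lower and 0.0251% higher. At an unadjusted p under 0.05, 3 members were lower (Sdf2l1, Pdia4 and Dnajb11) and 0 higher, against 8.23% and 6.81% of all genes. DESeq2 called 1 member, Sdf2l1, lower and 0 higher, against 2.62% and 1.46% of all genes.

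Without the libraries numbered 1, edgeR called 5 members lower and 0 higher, where 19.4% and 20.6% of all genes were called. These 5 were Sdf2l1, Hsp90b1, Dnajb9, Pdia4 and Manf. DESeq2 called the same 5 lower and 0 higher, where it called 13.1% and 14.7% of all genes. The libraries numbered 1 were left out because their values for cell division genes, Psmb9 and Psmb10 go against their labels. Other values, such as those of Nt5e and Sdf2l1, followed the labels in all 6 libraries. Leaving out the libraries numbered 1 narrows the spread within groups. The common dispersion was 0.124 over the 6 libraries and 0.0168 over the 4. All adjusted p-values given without the libraries numbered 1 depend on that choice and overstate certainty. At an unadjusted p under 0.05, edgeR gave 6 members lower and 0 higher, against 26.6% and 27.9% of all genes. The fitted level was lower for 9 members and higher for 1 (Creld2), where 50.1% and 49.9% of all genes were lower and higher, and the median of the members was −0.44 beside −0.0016 over all genes. For the same 9 members both MSC-TPr libraries lay below both control libraries, and for Creld2 both lay above, which held for 38.9% and 38.4% of all genes. In this comparison all 10 cell division genes were called higher as well, as was the MSC marker Cd44 (1.88), while Nt5e (−1.99) and the macrophage marker Cd68 (−2.83) were called lower (edgeR adjusted p from 0.000205 to 0.00203 for these 3 markers). Csf1r, another marker of blood cells, was called higher (3.74, edgeR adjusted p = 0.00401), with 0 to 18 reads per library. The called markers of blood cells thus went in opposite directions. Both MSC-TPr libraries compared here had a high summed level of cell division genes and both control libraries a low one. Label and cell division therefore cannot be told apart in this fit. The part of cell division and of the markers in the members' differences was not tested.

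**Figure D1:**
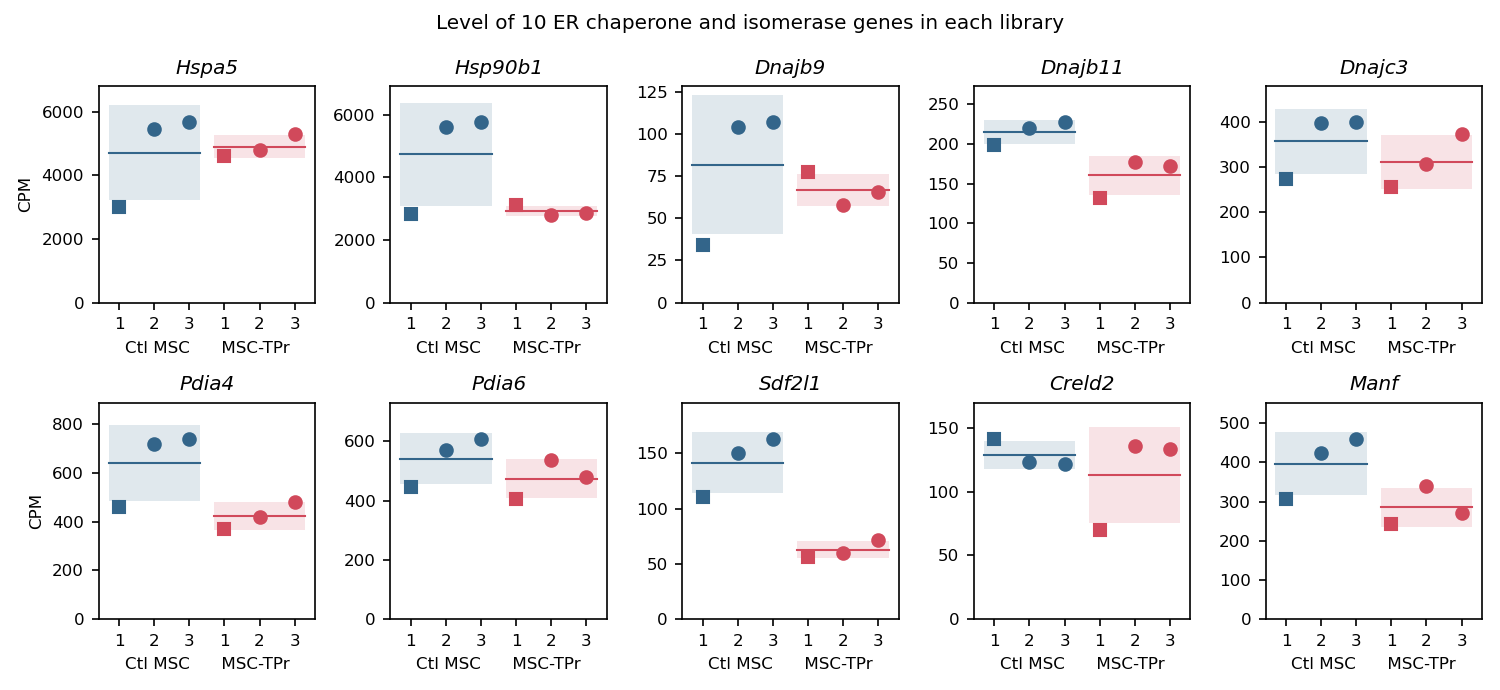
Level of each member in CPM (vertical axis, from 0, a scale of its own for each gene) in Ctl MSC 1, 2 and 3 (blue) and MSC-TPr 1, 2 and 3 (red); lines are group means, shaded bands ± 1 SD (n = 3), and squares the libraries numbered 1. The groups stand apart for Sdf2l1 and Dnajb11 only, and the control band is wide for Hspa5, Hsp90b1 and Dnajb9, where Ctl MSC 1 lies far below the other control libraries.

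The major chaperones behaved differently from each other. Hspa5 (chromosome 2 of GRCm38, 34771970 to 34777547, plus strand) stood at 3005, 5472 and 5678 CPM in controls 1 to 3 and at 4602, 4806 and 5298 CPM in MSC-TPr 1 to 3. The MSC-TPr libraries all lay inside the range of the control libraries. Its log2 fold change was 0.05 (SE 0.281, edgeR adjusted p = 0.945) over all 6 libraries and −0.14 (SE 0.139, edgeR adjusted p = 0.442) without the libraries numbered 1. Hsp90b1 (chromosome 10, 86690209 to 86705509, minus strand) stood at 2842, 5599 and 5767 CPM in controls 1 to 3 and at 3119, 2783 and 2878 CPM in MSC-TPr 1 to 3. Ctl MSC 2 and 3 stood alone at the higher level, and Ctl MSC 1 fell among the MSC-TPr libraries. The mean of Ctl MSC 2 and 3 was 1.999 times that of Ctl MSC 1 for Hsp90b1 and 1.86 times for Hspa5. The log2 fold change of Hsp90b1 was −0.69 (SE 0.300, edgeR adjusted p = 0.341) over all 6 libraries and −1.003 (SE 0.133, edgeR adjusted p = 0.00243) over the 4 libraries numbered 2 and 3. Exons of Hsp90b1 overlap Gm15344 and Gm25745 on the same strand over 217 bases and 1810014B01Rik on the opposite strand over 415 bases, so a small part of its count is uncertain.

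The ratio of the reads of these chaperones separated the groups with the libraries numbered 1 included. For each read of Hsp90b1 there were 1.06, 0.977 and 0.985 reads of Hspa5 in controls 1 to 3 and 1.48, 1.73 and 1.84 in MSC-TPr 1 to 3. The groups did not overlap, and Ctl MSC 1 lay beside the other control libraries, although both of its levels were near the lowest of all libraries. The mean log2 ratio was 0.01 ± 0.0626 (SD, n = 3) in Ctl MSC and 0.74 ± 0.164 (SD, n = 3) in MSC-TPr, a difference of 0.74. A ratio within a library is free of scaling between libraries. It shows unequal change of the genes and not which of them changed.

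All 45 ratios among the 10 members were then compared, a step chosen after the levels had been seen. In 17 of 45 the groups did not overlap, where the same held for 22.7% of all 71682351 pairs of tested genes. The pairs share genes and are not independent. The groups stood apart in 8 of the 9 ratios that involve Sdf2l1, in 5 of 9 for Hspa5 and in 0 of 9 for Creld2. The level of Sdf2l1 itself did not overlap between the groups, so its ratios are not independent of that level. The share of all genes whose ratio to Sdf2l1 or to Creld2 stood apart was not counted. Relative to Hspa5, 5 of the 9 other members were lower in every MSC-TPr library than in every control library (Hsp90b1, Dnajb11, Pdia4, Sdf2l1 and Manf), against 11.8% of all genes, and 0 were higher, against 1.55%. There were 6.49, 7.61 and 7.65 reads of Hspa5 for each read of Pdia4 in controls 1 to 3 and 12.5, 11.4 and 11.0 in MSC-TPr 1 to 3. With 3 libraries a group, the smallest two-sided p of an exact permutation test is 0.1, so no single ratio can pass a threshold of 0.05 in that test, and no other test of the ratios was run.

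**Figure D2:**
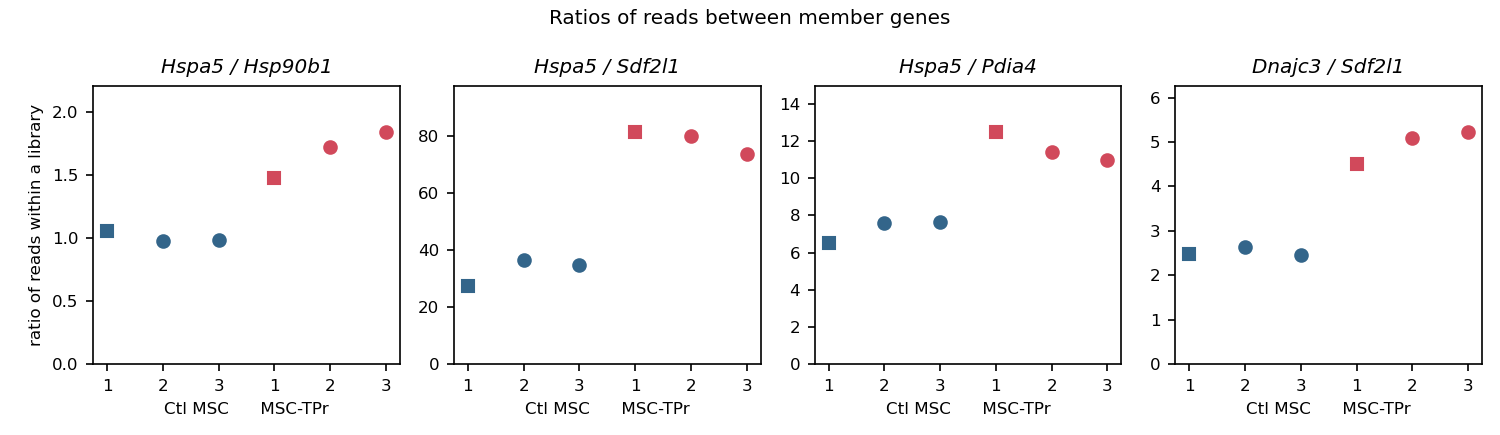
Reads of the first gene divided by reads of the second within each library (vertical axes from 0, no unit) for Hspa5 over Hsp90b1, Hspa5 over Sdf2l1, Hspa5 over Pdia4 and Dnajc3 over Sdf2l1, in Ctl MSC (blue) and MSC-TPr (red) libraries 1 to 3, with squares for the libraries numbered 1. In all 4 plots every MSC-TPr library lies above every control library, those numbered 1 included. All 4 are among the 17 of 45 member ratios without overlap between the groups, so this separation follows from their choice. Of all pairs of tested genes, 22.7% showed no overlap.

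The member with the largest fitted difference over all 6 libraries was Sdf2l1, which encodes a partner of the cochaperone Dnajb11. Sdf2l1 (chromosome 16, 17130138 to 17132383, minus strand) stood at 110, 151 and 163 CPM in controls 1 to 3 and at 56.7, 60.1 and 71.8 CPM in MSC-TPr 1 to 3. Every library labelled MSC-TPr was below every control library, which held for 2 of the 10 members and for 12% of all genes tested. No member was higher in every MSC-TPr library, where 10.6% of all genes were. The group means were 141 ± 27.8 CPM and 62.9 ± 7.94 CPM (SD, n = 3 each). The log2 fold change was −1.17 (SE 0.200, edgeR adjusted p = 0.0774) over all 6 libraries, the lowest p among the members and rank 116 of 11974 genes. DESeq2 gave −1.16 (adjusted p = 0.000221) over the same libraries. Without the libraries numbered 1, edgeR gave −1.25 (SE 0.135, adjusted p = 0.00126). Leaving out 1 library at a time gave −1.32 to −1.05 (edgeR adjusted p from 0.035 to 0.329), and the value called was the one without Ctl MSC 1. There were 27.2, 36.3 and 34.7 reads of Hspa5 for each read of Sdf2l1 in the control libraries and 81.2, 79.9 and 73.8 in the MSC-TPr libraries.

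The J-domain cochaperones, which deliver substrates to Hspa5 and stimulate its ATPase, are given next. Dnajb11 (chromosome 16, 22857845 to 22879634, plus strand) stood at 199, 220 and 228 CPM in controls 1 to 3 and at 132, 177 and 172 CPM in MSC-TPr 1 to 3. Like Sdf2l1, it showed no overlap between the groups. Its log2 fold change was −0.42 (SE 0.167, edgeR adjusted p = 0.307) over all 6 libraries and −0.36 (SE 0.110, edgeR adjusted p = 0.0406) without the libraries numbered 1, which is under the fold threshold. Dnajb9 (chromosome 12, 44205559 to 44210326, minus strand), a cochaperone that also binds the sensor Ern1, stood at 34.3, 104 and 107 CPM in controls 1 to 3 and at 77.2, 58.1 and 65.4 CPM in MSC-TPr 1 to 3. It spread most within the controls, where Ctl MSC 2 and 3 were 3.08 times Ctl MSC 1. Its log2 fold change was −0.29 (SE 0.419, edgeR adjusted p = 0.795) over 6 libraries and, without the libraries numbered 1, −0.77 (SE 0.118, edgeR adjusted p = 0.00396). Dnajc3 (chromosome 14, 118937976 to 118981697, plus strand), also an inhibitor of the kinase Eif2ak3, stood at 274, 399 and 400 CPM in controls 1 to 3 and at 256, 307 and 375 CPM in MSC-TPr 1 to 3. The groups overlapped, and the log2 fold change was −0.20 (SE 0.227, edgeR adjusted p = 0.736) over 6 libraries and, without the libraries numbered 1, −0.23 (SE 0.139, edgeR adjusted p = 0.224).

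The disulfide isomerases had fitted log2 fold changes of unlike size, and the difference between them was not tested. Pdia4 (chromosome 6, 47796141 to 47813430, minus strand) stood at 463, 719 and 742 CPM in controls 1 to 3 and at 369, 422 and 481 CPM in MSC-TPr 1 to 3. The groups overlapped only through MSC-TPr 3, which was above Ctl MSC 1. The log2 fold change was −0.60 (SE 0.232, edgeR adjusted p = 0.302) over 6 libraries and, without the libraries numbered 1, −0.69 (SE 0.128, edgeR adjusted p = 0.00763). Pdia6 (chromosome 12, 17266545 to 17284770, plus strand) stood at 445, 572 and 609 CPM in controls 1 to 3 and at 405, 538 and 480 CPM in MSC-TPr 1 to 3. Its groups overlapped, and the log2 fold change came to −0.19 (SE 0.195, edgeR adjusted p = 0.696) over 6 libraries and, without the libraries numbered 1, −0.21 (SE 0.127, edgeR adjusted p = 0.214). For each read of Pdia6 there were 1.04, 1.26 and 1.22 reads of Pdia4 in Ctl MSC and 0.911, 0.783 and 1.003 in MSC-TPr, so the groups stood apart in this ratio. Exons of Pdia6 overlap Atp6v1c2 on the opposite strand over 50 bases.

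Manf and Creld2 encode small ER proteins that can also be secreted. Manf (chromosome 9, 106838312 to 106891979, minus strand), which binds Hspa5, stood at 306, 423 and 461 CPM in controls 1 to 3 and at 243, 341 and 272 CPM in MSC-TPr 1 to 3. Only MSC-TPr 2 was above the lowest control library. The log2 fold change was −0.48 (SE 0.221, edgeR adjusted p = 0.373) over 6 libraries and, without the libraries numbered 1, −0.53 (SE 0.150, edgeR adjusted p = 0.0318). Exons of Manf overlap Rbm15b on the same strand over 14 bases, and Dcaf1 and 4930524O07Rik on the opposite strand over 312 bases. Creld2 (chromosome 15, 88819646 to 88826683, plus strand) stood at 142, 123 and 122 CPM in controls 1 to 3 and at 69.6, 136 and 133 CPM in MSC-TPr 1 to 3. A single library, MSC-TPr 1, was low, and the other 5 lay close together. The sign of its log2 fold change turned with that library, from −0.19 (SE 0.272, edgeR adjusted p = 0.793) over 6 libraries to 0.14 (SE 0.107, edgeR adjusted p = 0.319) over 4.

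**Figure D3:**
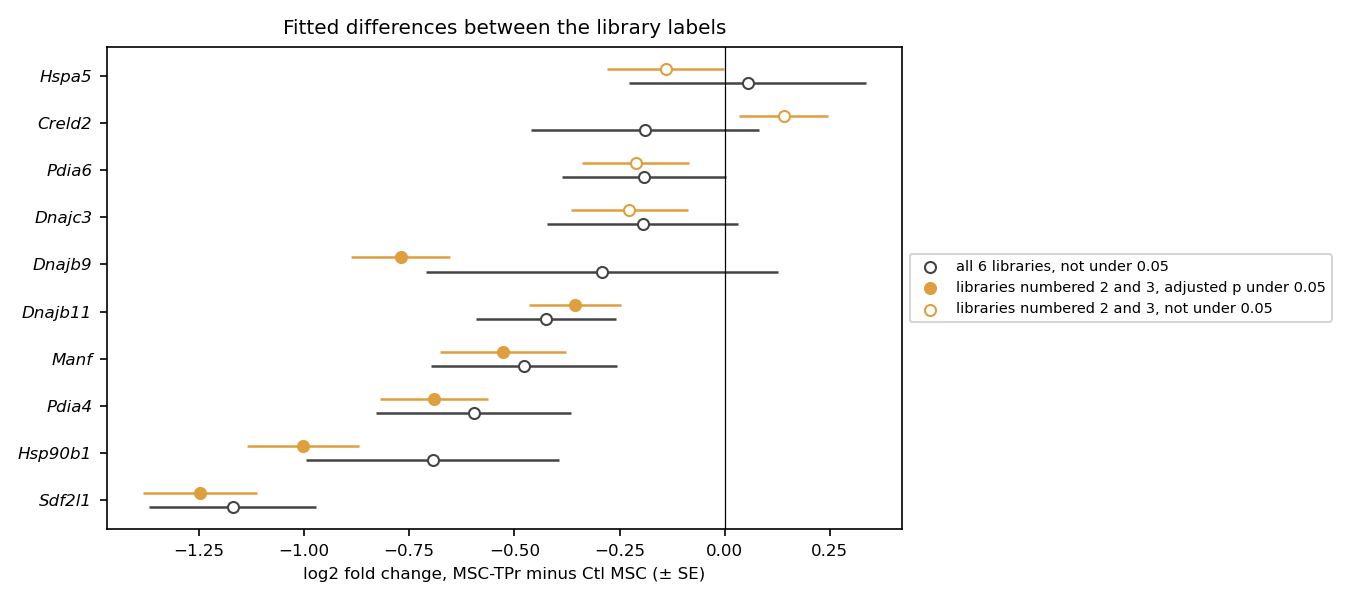
Fitted log2 fold change of each member (horizontal axis, MSC-TPr minus Ctl MSC, ± SE from edgeR) over all 6 libraries (grey) and over the libraries numbered 2 and 3 (orange); filled points have an adjusted p under 0.05. No grey point is filled, and the filled orange points are Sdf2l1, Hsp90b1, Pdia4, Manf, Dnajb11 and Dnajb9, of which Dnajb11 is under the fold threshold of 0.5.

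The libraries numbered 1 were also set side by side without a replicate. MSC-TPr 1 was lower than Ctl MSC 1 by at least 0.5 on the log2 scale in 3 members, against 28.3% of all genes: Creld2 (−1.03), Sdf2l1 (−0.96) and Dnajb11 (−0.58). It was higher by that much in 2 members, against 25.3% of all genes: Dnajb9 (1.17) and Hspa5 (0.62). Hsp90b1 differed by 0.13 between these libraries, where it had differed by −1.003 over the 4 others. Sdf2l1 differed by −0.96 between these libraries and by −1.25 over the 4 others. The share of all genes with a like difference in both comparisons was not counted.

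The members varied over the libraries in more than one way. Ctl MSC 3 was the highest library for 9 of the 10, and Ctl MSC 1 for Creld2. MSC-TPr 1 was the lowest for 7, Ctl MSC 1 for Hspa5 and Dnajb9, and MSC-TPr 2 for Hsp90b1. The mean of the centred log2 CPM of the members was −0.21, 0.37 and 0.43 in controls 1 to 3 and −0.37, −0.14 and −0.08 in MSC-TPr 1 to 3. Pdia4, Manf, Dnajc3 and Pdia6 stayed nearest to this mean profile, with a root mean square difference of 0.102 to 0.139, while Dnajb9 (0.408), Sdf2l1 (0.387) and Creld2 (0.366) departed most. Dnajb9 and Hsp90b1 were higher in each of the 3 libraries with the low summed level of cell division genes (Ctl MSC 2 and 3 and MSC-TPr 1) than in each of the other 3, which held for 21.7% of all genes. Creld2 was lower in each of them, as were 23% of all genes. The other 7 members, Sdf2l1 included, overlapped between these libraries, and the part of cell division in these values was not tested.

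**Figure D4:**
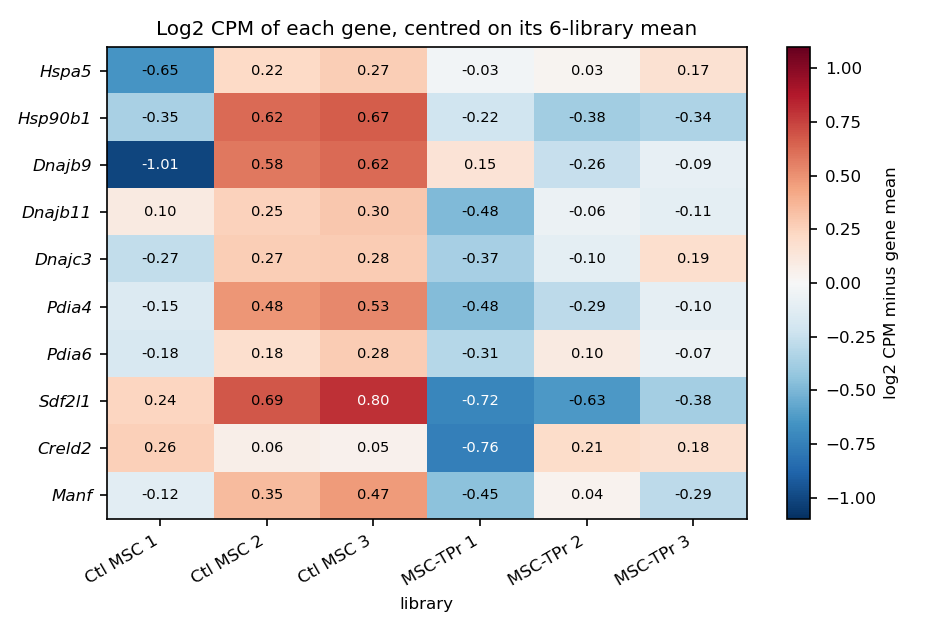
Log2 CPM of each member (rows) in each library (columns), minus the gene's mean over the 6 libraries; red is above and blue below that mean, and the value is printed in each cell. Ctl MSC 2 and 3 are above the mean for all 10 members, Ctl MSC 1 is lowest for Dnajb9 (−1.01) and Hspa5 (−0.65), and MSC-TPr 1 is lowest for Creld2 (−0.76) and Sdf2l1 (−0.72).

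The genes whose profile lay nearest to the mean profile of the members were taken from 5822 other genes with a mean log2 CPM of at least 5. They were Rrm2b, with a root mean square difference of 0.0552 over the 6 libraries, Inpp5b (0.0664), Srpr (0.0691), Sec63 (0.0732) and Igfbp4 (0.0780). Rrm2b, Inpp5b and Igfbp4 are in none of the gene lists used here, while Srpr and Sec63 are in the list of translocon and signal peptidase genes. Rrm2b, the nearest, stood at 34.1, 53.5 and 55.5 CPM in controls 1 to 3 and at 33.0, 36.4 and 35.7 CPM in MSC-TPr 1 to 3. Srpr encodes the receptor that docks ribosomes at the ER membrane, and it stood at 215, 319 and 340 CPM in controls 1 to 3 and at 221, 240 and 243 CPM in MSC-TPr 1 to 3. Sec63 encodes a J-domain protein of the translocation channel, and it measured 259, 358 and 367 CPM and 223, 275 and 298 CPM in the same order.

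Other genes of the ER folding machinery were counted from lists. Over all 6 libraries edgeR called 0 genes in either direction in each of the 5 lists that follow, and unadjusted p under 0.05 and DESeq2 are given beside each. Of all genes, edgeR called 0.401% lower and 0.0251% higher, and 8.23% were lower and 6.81% higher at an unadjusted p under 0.05. DESeq2 called 2.62% of all genes lower and 1.46% higher. Of 14 lectin chaperones and other folding factors tested, 2 had an unadjusted p under 0.05, and DESeq2 called both lower: Creld1, a relative of Creld2 (−2.15, SE 0.468, DESeq2 adjusted p = 0.000329), and Sil1, the nucleotide exchange factor of Hspa5 (−0.88, SE 0.203, DESeq2 adjusted p = 0.00088). The median log2 fold change of this list was −0.26 over 6 libraries and −0.50 without the libraries numbered 1. In the latter fit, where 19.4% of all genes were called lower and 20.6% higher, edgeR called 6 of the 14 lower and 1 higher. These included Sil1 (−1.03, edgeR adjusted p = 0.00126) and Hyou1, a large Hsp70-like chaperone of the ER (−1.02, edgeR adjusted p = 0.00636). Sil1 stood at 47.3, 61.2 and 60.7 CPM in controls 1 to 3 and at 31.7, 29.9 and 29.6 CPM in MSC-TPr 1 to 3, with no overlap.

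Of 17 other disulfide isomerases and oxidases tested, 4 had an unadjusted p under 0.05 over all 6 libraries and DESeq2 called 0. The median of this list was −0.32 on the log2 scale over 6 libraries and −0.11 over 4. Without the libraries numbered 1, edgeR called 5 lower and 1 higher against the same 19.4% and 20.6% of all genes, among them Ero1lb, an oxidase that recharges disulfide isomerases (−1.64, edgeR adjusted p = 0.000561), and Txndc11 (−1.04, edgeR adjusted p = 0.00243). Of the 7 prolyl isomerases, 1 had an unadjusted p under 0.05 over all 6 libraries and DESeq2 called 0. Over the 4 libraries numbered 2 and 3, where 20.6% of all genes were called higher, 3 were called higher, Fkbp14 (0.92), Fkbp10 (0.90) and Fkbp9 (0.78), with edgeR adjusted p from 0.00509 to 0.00666, and 0 were called lower. Of 16 genes of the translocon and signal peptidase, 3 had an unadjusted p under 0.05 over all 6 libraries and DESeq2 called 0. Over the 4 libraries, against 20.6% of all genes higher and 19.4% lower, edgeR called 1 higher, Spcs3 (0.9997, adjusted p = 0.00149), and 0 lower. Most genes of this list had a lower fitted level in MSC-TPr, however. The median log2 fold change was −0.31 over 6 libraries, with 2 of 16 above 0, and −0.31 over 4, with 4 of 16 above 0.

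The list of unfolded protein response genes holds its sensors and Xbp1, and also targets of the response such as Sesn2, Chac1 and Asns. Its counts therefore do not describe regulators of the members alone. Of 16 tested, 0 had an unadjusted p under 0.05 over all 6 libraries and DESeq2 called 0. The median of this list was 0.04 on the log2 scale over 6 libraries and −0.29 over 4, so its sign turned. Over the 4 libraries numbered 2 and 3, edgeR called 4 of the 16 lower and 0 higher, a share near the 19.4% of all genes called lower. The 4 were Ern1 (−1.65, adjusted p = 0.000667), Ddit3, a factor of prolonged ER stress (−1.16, adjusted p = 0.0025), Atf6 (−0.66, adjusted p = 0.00586) and Sesn2 (−0.62, adjusted p = 0.00631). Ern1 stood at 50.4, 237 and 210 CPM in controls 1 to 3 and at 106, 78.0 and 63.9 CPM in MSC-TPr 1 to 3, so Ctl MSC 1 was below every MSC-TPr library. For Xbp1 the log2 fold change came to 0.03 (SE 0.228, edgeR adjusted p = 0.961) over 6 libraries and 0.09 (edgeR adjusted p = 0.511) over 4. The table counts reads on whole genes, so the spliced form of Xbp1 was not analysed here.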

How the data were processed

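Polyadenylated RNA was sequenced from 6 libraries, 3 a group, with a stranded kit. The values deposited by the authors are raw counts per gene from Htseq-count, made from alignments to mm10 and not normalized. The submitters' processing notes name CASAVA 1.8.2, Trimmomatic 0.35 and TopHat2 2.1.0. The strand setting of the counting and the gene annotation are not given in the sources used here. Htseq-count's summary rows were left out, and reads on genes were 79.2% to 86.2% of those listed. A floor of 3 reads equals 0.139 to 0.181 CPM and reflects counting error alone.

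The counts went into edgeR 4.0.16 under R 4.3.3, with TMM, filterByExpr and a quasi-likelihood fit on group, and p-values were adjusted by Benjamini-Hochberg across the genes tested. DESeq2 1.42.0 was an alternative. A call took an adjusted p below 0.05 together with a change of 0.5 or more on the log2 scale in either direction. CPM use TMM-scaled totals over all 6 libraries. An SE is the log2 fold change divided by the square root of F for edgeR, and the reported standard error for DESeq2. Centred profiles used log2(CPM + 0.5). Exon lengths, coordinates and overlaps came from GENCODE M21 (GRCm38, the same assembly as mm10), promoters from RefSeq. In simulated counts with 200 genes changed 4-fold in 3 libraries against 3, edgeR recovered 200 at a dispersion of 0.01 (12047 genes) and 190 at 0.1 (12037 genes), with 1 and 7 false calls. DESeq2 recovered 200 and 192, with 0 and 22 false calls (16314 and 16332 genes). The planted changes were larger than any fitted difference of a member, so the simulation does not give the power for changes of that size. The common dispersion was 0.124 over the 6 libraries and 0.0168 over the 4.

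The members and lists were chosen with earlier results of these data known. The genes named are the members, the transduced genes, up to 4 called genes of largest change per list, and the 5 genes of most like pattern. Xbp1, the markers and the overlapping or paired genes were added for context. The fit with DESeq2 over 4 libraries, the ratios between members and the order by cell division were chosen after seeing the data.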

Additional observations from a re-analysis of the deposited data

How the results depend on the processing

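The number of members called lower was 0 over all 6 libraries with edgeR and stayed 0 under RLE and upper quartile normalization, without a filter, with at least 10 counts in every library, with the replicate block, and with an adjusted p under 0.05 as the only criterion. It was 1 with DESeq2, 5 with edgeR and 5 with DESeq2 when both libraries numbered 1 were left out, and 0 to 1 when 1 library was left out at a time. The 1 member, Sdf2l1, came from leaving out Ctl MSC 1. No member was called higher in any of the 15 alternatives. In the 6 other chaperone and ER lists together, the counts called higher and lower were 0 and 0 over all 6 libraries, 1 and 2 with DESeq2, 11 and 16 without both libraries numbered 1, and 12 and 16 with DESeq2 on the same 4 libraries. Leaving out 1 library at a time gave 0 higher and 0 to 1 lower. The causes of these shifts were not tested. Of all genes, edgeR called 0.0251% higher and 0.401% lower over all 6 libraries, and 20.6% and 19.4% without both libraries numbered 1. With DESeq2 these shares were 1.46% and 2.62% over all 6, and 14.7% and 13.1% without both libraries numbered 1. The median log2 fold change of the members kept its sign in all 14 alternatives that could change it, from −0.55 to −0.29. The sign of Hspa5 turned to −0.14 with edgeR and to −0.14 with DESeq2 over the 4 libraries, and its range with 1 library left out was −0.18 to 0.21. The sign of Creld2 turned to 0.14 with either tool over the 4 libraries, and its range with 1 library left out was −0.34 to 0.065. Both groups carry the numbers 1 to 3, and the deviations of libraries sharing a number from their group means correlated at −0.77, −0.62 and −0.62 across genes. The libraries numbered 1 depart from their groups in opposite directions, and deviations within a group balance each other. The correlations therefore cannot tell whether the numbers pair the libraries. With the replicate block, the median log2 fold change of the members was −0.34 and 0 members were called. Depth did not limit these values, since the lowest count of a member was 568 reads.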

Other observations

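Chaperones of the cytosol and mitochondria, which fold proteins outside the ER, had a summed level of 11508 to 12074 CPM in the control libraries and of 12132 to 13985 CPM in the MSC-TPr libraries. The sum weighs abundant genes most. The median log2 fold change of this list was −0.11 over all 6 libraries, with 7 of 15 genes above 0. Without the libraries numbered 1 the median was 0.19, with 8 of 15 above 0. Over all 6 libraries edgeR called 0 of 15 in either direction, 5 had an unadjusted p under 0.05, and DESeq2 called 1 higher, Hspa4, an Hsp70-like exchange factor (0.72, DESeq2 adjusted p = 0.00927). Of all genes, 8.23% were lower and 6.81% higher at an unadjusted p under 0.05, and DESeq2 called 2.62% lower and 1.46% higher. Hspa4 stood at 674, 597 and 606 CPM in controls 1 to 3 and at 1071, 1128 and 861 CPM in MSC-TPr 1 to 3, with no overlap between the groups. Without the libraries numbered 1, edgeR called 5 higher and 1 lower, where 20.6% and 19.4% of all genes were called. Hsp90aa1, the inducible cytosolic relative of Hsp90b1, rose by 1.09 on the log2 scale over these 4 libraries (edgeR adjusted p = 0.00712), with 1298, 811 and 836 CPM in controls 1 to 3 and 1829, 2074 and 1425 CPM in MSC-TPr 1 to 3. Over all 6 its log2 fold change was 0.85 (SE 0.261, edgeR adjusted p = 0.220). Hspb1 gave 1.06 over the 4 libraries and 0.09 over all 6. Hsph1 was called lower over the 4 (−0.59, edgeR adjusted p = 0.0138) and gave −0.53 over all 6.

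Genes of the translocon and signal peptidase had a summed level of 4456 to 4697 CPM in the control libraries and of 2793 to 4169 CPM in the MSC-TPr libraries, with the lowest value in MSC-TPr 1. Ssr1 stood at 840, 535 and 559 CPM in controls 1 to 3 and at 166, 402 and 453 CPM in MSC-TPr 1 to 3 (log2 fold change over all 6 libraries −0.92, SE 0.400, edgeR adjusted p = 0.342). Without the libraries numbered 1 it was −0.35 (SE 0.125, edgeR adjusted p = 0.0616). Ssr1 was chosen after its values were seen.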
